A study of Mus musculus with 6 samples.

Results

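The unfolded protein response (UPR) and its endoplasmic reticulum (ER) chaperones were examined in the posterior eye of mouse embryos with and without Oa1. The genes were chosen by name and function, as 30 genes of 4 classes. These were 14 ER chaperones and folding factors, 4 stress sensors and their transcription factors, 4 genes of ER-associated degradation, and 8 genes of the branch controlled by the transcription factor Atf4. All 30 had at least 1 probe set on the Affymetrix array, out of 18193 genes named there, and together they had 70 probe sets. A gene was read from its brightest probe set over the 6 arrays, and 29 of these 30 passed the filter on low signals (a mean above the 40th percentile). Atf3 did not.

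Both groups were embryos at embryonic day 15.5. The control group was wild type (WT) and the other, labelled Oa1-/-, carried a null allele of Oa1. This gene is now named Gpr143 and encodes a receptor in the membrane of pigment granules. Each of the 3 arrays per genotype carried RNA from the pooled eyes of 6 embryos of 1 dam, after removal of the front of the eye, so a replicate is a litter. The sources used here do not give the strain, the embryos' sex or which part of Oa1 was deleted, and they name no Cre or tissue restriction for the null allele. Because whole tissue was used, fewer cells of a type and less RNA per cell cannot be told apart.

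The UPR matches the folding capacity of the ER to the load of new secretory and membrane proteins. In textbook accounts, the sensors IRE1 (Ern1), PERK (Eif2ak3) and ATF6 (Atf6) are held inactive by the chaperone BiP (Hspa5) and are released when unfolded proteins accumulate. IRE1 splices the Xbp1 messenger RNA, and cleaved ATF6 and spliced XBP1 raise chaperones and degradation genes. PERK slows translation and favours the synthesis of ATF4, which raises genes of amino acid supply, feedback and cell death. Cells with much membrane traffic, such as pigment epithelium, depend on this machinery. The arrays measure messenger RNA only, so Xbp1 splicing, ATF6 cleavage and phosphorylation were not analysed here.

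The promoters of 14 members held a textbook sequence element of these branches, and 12 held none; the elements are shown because textbook accounts tie each branch to its own element. Windows from 250 bases before to 50 bases after the start were taken from RefSeq (GRCm38.p6) and matched 26 of the 30 members by symbol; Manf, Hyou1, Atf6 and Ppp1r15b had no entry. The ER stress element (ERSE, which is CCAAT, then any 9 bases, then CCACG), a site of ATF6 together with NF-Y, was searched on both strands. It was found in 7 of the 12 chaperone genes with a window, in Syvn1, and in 0 of the 7 Atf4 branch genes, against 0.137% of 27025 genes in the table. ERSE-II (ATTGG, then any 1 base, then CCACG) was found in Dnajb11 and Herpud1, against 0.0444% of genes. The amino acid response element bound by ATF4 with C/EBP factors (CARE, TGATGNAA) was found in Atf3, Trib3, Asns and Chac1, which are 4 of the 7 Atf4 branch genes with a window, and in Herpud1, against 4.51% of genes. The XBP1 element core (TGACGTGG) was found in 0 members, against 0.714% of genes, and the 3 sensor windows held none of the 4 elements. No match of these elements overlapped a match of another. The members were chosen by their function in these branches, so a share above that of all genes is not a result of these data. A match describes the letters of a window and does not show that a factor was bound there in these eyes.

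The 4 windows below show each element in place, in the 250 bases before the start, 5′ to 3′ on the gene's strand, with the fixed letters of the element in capitals. Only exact matches were counted, so sites with a changed letter were not searched for and are not marked. Hspa5 (chr2:34771840-34772089, plus strand) has 1 ERSE close to the start, Hsp90b1 (chr10:86705445-86705694, minus strand) has 2 in opposite orientations, Herpud1 (chr8:94386179-94386428, plus strand) has CARE and then ERSE-II, and Chac1 (chr2:119350992-119351241, plus strand) has CARE.
Hspa5: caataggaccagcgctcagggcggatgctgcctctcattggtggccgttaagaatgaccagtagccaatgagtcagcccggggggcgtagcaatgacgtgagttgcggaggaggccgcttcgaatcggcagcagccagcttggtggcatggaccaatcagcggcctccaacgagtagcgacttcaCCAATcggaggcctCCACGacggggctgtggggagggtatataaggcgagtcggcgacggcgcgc
Hsp90b1: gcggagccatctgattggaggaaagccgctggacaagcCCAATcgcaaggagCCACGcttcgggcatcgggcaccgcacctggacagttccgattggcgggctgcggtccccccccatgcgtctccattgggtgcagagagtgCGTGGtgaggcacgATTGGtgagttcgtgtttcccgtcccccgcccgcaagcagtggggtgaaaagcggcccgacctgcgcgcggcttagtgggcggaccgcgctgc
Herpud1: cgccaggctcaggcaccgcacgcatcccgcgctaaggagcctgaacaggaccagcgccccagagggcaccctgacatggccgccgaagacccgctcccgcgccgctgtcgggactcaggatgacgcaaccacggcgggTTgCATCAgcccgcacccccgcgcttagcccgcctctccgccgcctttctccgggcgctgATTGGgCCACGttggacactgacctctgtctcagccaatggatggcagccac
Chac1: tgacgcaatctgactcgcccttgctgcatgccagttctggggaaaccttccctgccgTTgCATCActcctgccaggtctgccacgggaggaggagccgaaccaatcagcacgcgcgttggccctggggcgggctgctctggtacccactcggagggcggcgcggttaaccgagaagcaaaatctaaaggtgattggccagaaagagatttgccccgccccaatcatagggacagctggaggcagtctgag

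The matches of the other members are given as sites alone, so that the spacer of each can be compared; where the run starts with CGTGG or TT the element lies on the opposite strand.
Calr: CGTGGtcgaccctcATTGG
Canx: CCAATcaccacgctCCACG
Creld2: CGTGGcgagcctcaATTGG
Dnajc3: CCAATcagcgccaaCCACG
Pdia6: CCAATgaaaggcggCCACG
Syvn1: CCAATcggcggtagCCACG
Dnajb11: ATTGGcCCACG
Asns: TGATGaAA
Atf3: TTgCATCA
Trib3: TTaCATCA

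**Figure D1:**
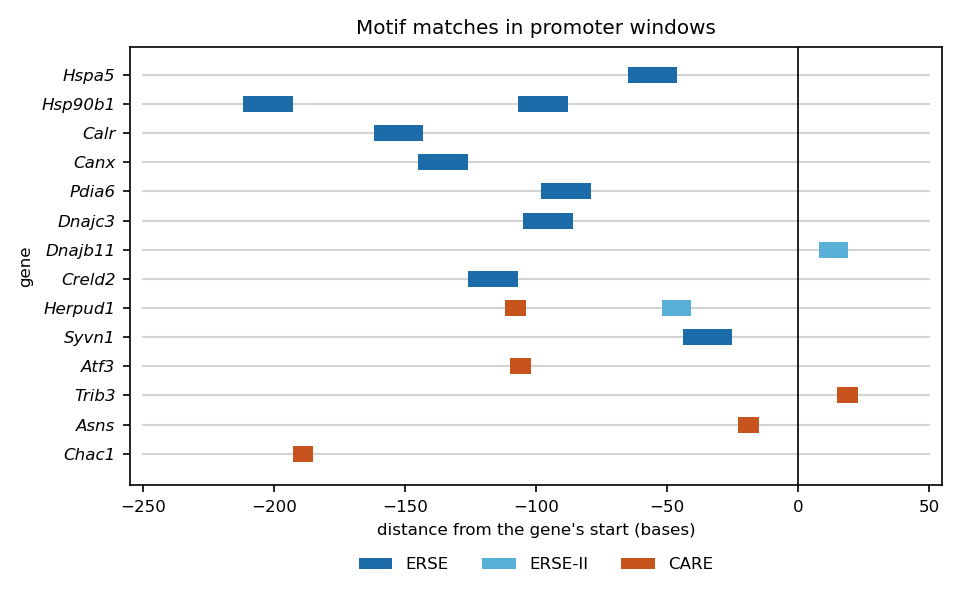
Position of each element match (coloured block, drawn to its length) in the promoter window of the 14 members that held 1, with the distance from the gene's start in bases on the horizontal axis. ERSE blocks lie in chaperone genes and Syvn1, CARE blocks lie in Atf4 branch genes and Herpud1, and the matches of Dnajb11 and Trib3 lie just after the start.

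The arrays were checked before the members were read. Gpr143 itself (1420581_at) read 250, 257 and 246 in WT against 28.3, 39.1 and 6.02 in Oa1-/-, so each array matched its genotype label; whether the probe set lies in the deleted part was not analysed here. Array medians ran from 93.6 to 129, and the highest unspiked bacterial control read 22.1 to 39.3, which marks the background. Retinal and pigment markers were strong, with Pax6 at 10026 to 11541 and Tyrp1 at 2264 to 3171, but lens and muscle genes were present too, with Mip at 6559 to 9980 and Actc1 at 1468 to 4517. WT replicate 1 had the lowest mean of the lens, muscle and photoreceptor precursor markers. WT replicate 3 had hardly any signal of the Y-linked gene Eif2s3y (9.26, against 406 or more elsewhere). The Y-linked genes Kdm5d (13.5) and Uty (14.4) were also lowest there, and Xist was highest (14194.5). Its pool thus held few or no males, unlike the others, and the part of sex in the results was not tested. Oa1-/- replicate 1 had the highest 18S ribosomal RNA control (6348 at its 3′ end, against 1476 to 2618 elsewhere).

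None of the 29 UPR and ER chaperone genes passed the test between genotypes. In limma, 0 had an adjusted p below 0.05, and their adjusted p-values lay between 0.985 and 0.9996. The background was as low, since 0% of the 27022 probe sets tested passed. Gpr143 itself did not pass, at a change of −2.82 (unadjusted p = 2.35e-05 and adjusted p = 0.318 in limma). It passed with median centring of the arrays (adjusted p = 0.0012 in limma). A lack of calls alone therefore says little about smaller changes. At an unadjusted p below 0.05 there were 0 of 29, against 4.1% of all probe sets and 470 of 12880 genes read from their brightest probe set. For 1 member, Atf4, the genotypes did not overlap, which was so for 10.2% of all probe sets and 1387 of the 12880 genes. Of the 29 changes, 16 were above 0 and 13 below, against 50.8% above 0 over the 12880 genes tested, and without WT replicate 2 the split was 12 and 17. With median centring of the arrays it was 19 and 10, where 60.2% of all genes were above 0. The median of the 29 changes was 0.018 on the log2(signal + 16) scale, against 0.0025 over all genes, and the median size regardless of sign was 0.10 against 0.093.

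The intervals say how large a difference could have been missed. For 28 of 29 members the 95% interval of the change lay inside a 1.5-fold difference in either direction, and for 17 it lay inside a 1.3-fold difference. Trib3 was the exception, with an upper bound of 1.86-fold. These bounds hold for the brightest probe set of each gene, and some dimmer ones went past 1.5-fold. Among them, 1438040_a_at of Hsp90b1 reached a 1.59-fold decrease and 1456225_x_at of Trib3 a 3.10-fold increase. The median standard error of the members was 0.11, against 0.13 over all genes. An adjusted p above the threshold does not show that the genotypes were equal, only that a difference of this size was not separated from the spread between litters.

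**Figure D2:**
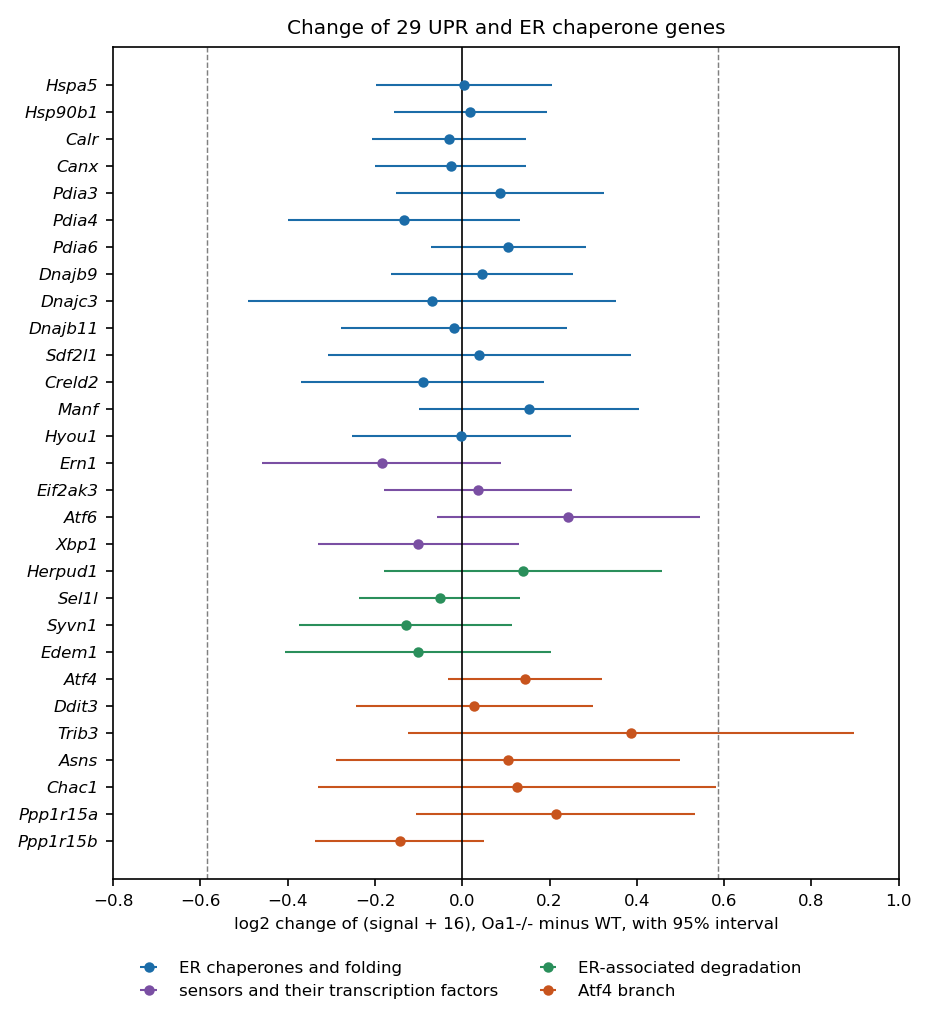
Log2 change of the signal in Oa1-/- relative to WT for the brightest probe set of 29 members (points, 3 arrays per genotype) with the 95% interval from limma (bars); colours mark the 4 classes and dashed lines mark a 1.5-fold difference. Every bar crosses 0, and only that of Trib3 crosses a dashed line.

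The ER chaperones and folding factors were centred on 0. Of the 14, 7 were above 0 and 7 below, with a median change of 0.0011 and a range from −0.13 for Pdia4 to 0.15 for Manf. Hspa5 (1416064_a_at), the Hsp70 chaperone BiP of the ER lumen and the common readout of ER stress, read 14665, 12417 and 13606 in WT against 14668, 12659 and 13458 in Oa1-/-. The highest array of each genotype read nearly the same, as did the lowest, and the log2 change was 0.0042 (SE 0.088, 95% interval −0.20 to 0.21), which is a 12.8% decrease to a 15.4% increase. Hsp90b1 (1415889_a_at), the ER member of the Hsp90 family, read 7250, 7014 and 7343 in WT against 7257, 6794 and 7864 in Oa1-/-. Its highest and its lowest value were both in Oa1-/- arrays, and the change was 0.018 (interval −0.16 to 0.19).

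The lectin chaperones hold newly made glycoproteins until they fold. Calr (1417606_a_at), calreticulin of the lumen, read 8556, 9219 and 9737 in WT against 9136, 9275 and 8493 in Oa1-/-. Canx (1415692_s_at), its membrane-bound relative calnexin, read 7691, 8074 and 8916 in WT against 8139, 8037 and 8007 in Oa1-/-. Both genes were highest on WT replicate 3, and their changes were −0.031 (interval −0.21 to 0.15) and −0.027 (interval −0.20 to 0.15). The WT arrays of Canx spread far more than the Oa1-/- arrays, with an SD of 627 against 69.6 (n = 3 each).

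The protein disulfide isomerases form and shuffle disulfide bonds. Pdia3 (1423423_at), which works with the lectin chaperones, read 6823, 7572 and 6000 in WT against 7121, 7853 and 6632 in Oa1-/-. Pdia4 (1416497_at) read 2697, 2150 and 2760 in WT against 2475, 2085 and 2344 in Oa1-/-. Pdia6 (1423648_at), which also damps IRE1 and PERK signalling, read 6120, 6205 and 5436 in WT against 6530, 6402 and 6154 in Oa1-/-. The groups overlapped for each of these genes, and the changes were 0.086 (SE 0.10), −0.13 (SE 0.12) and 0.11 (SE 0.078).

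The J-domain proteins drive the cycle of BiP. Dnajb9 (1417191_at), a co-chaperone that restrains IRE1, read 1375, 1369 and 1325 in WT against 1516, 1409 and 1285 in Oa1-/-. Dnajc3 (1433887_at), which is also called P58IPK and inhibits PERK, read 1802, 1228 and 1046 in WT against 1217, 1182 and 1393 in Oa1-/-. Dnajb11 (1423151_at) read 1015, 1012 and 1015 in WT against 991, 1153 and 878 in Oa1-/-. Dnajc3 had the widest interval of the chaperones (−0.49 to 0.35), since WT replicate 1 stood far above the other two WT arrays. The changes were 0.045 (SE 0.091), −0.069 (SE 0.18) and −0.018 (SE 0.11).

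The remaining members of the class are small or stress-inducible secretory pathway proteins. Hyou1 (1423291_s_at), a nucleotide exchange factor for BiP, read 1303, 1432 and 1333 in WT against 1300, 1563 and 1219 in Oa1-/-. Sdf2l1 (1418206_at), which assists BiP and its J-domain partners, read 1108, 735 and 943 in WT against 988, 987 and 856 in Oa1-/-. Its WT values reached both above and below all Oa1-/- values. Creld2 (1452754_at), a secreted ER stress-inducible protein, read 1231, 911 and 1047 in WT against 1016, 1021 and 935 in Oa1-/-. Manf (1428112_at), an ER-resident protein that is released as a trophic factor under stress, read 3845, 2971 and 3050 in WT against 3864, 3606 and 3443 in Oa1-/-. The change of Manf, 0.15 (SE 0.11, interval −0.099 to 0.41), was the highest of the class; WT replicate 1 lay inside the Oa1-/- range and the other WT arrays lay below it. Those of Hyou1, Sdf2l1 and Creld2 were −0.0019, 0.039 and −0.091. Hspa5, Sdf2l1, Creld2 and Manf had the same lowest array, WT replicate 2, and among the WT arrays all were highest on replicate 1.

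**Figure D3:**
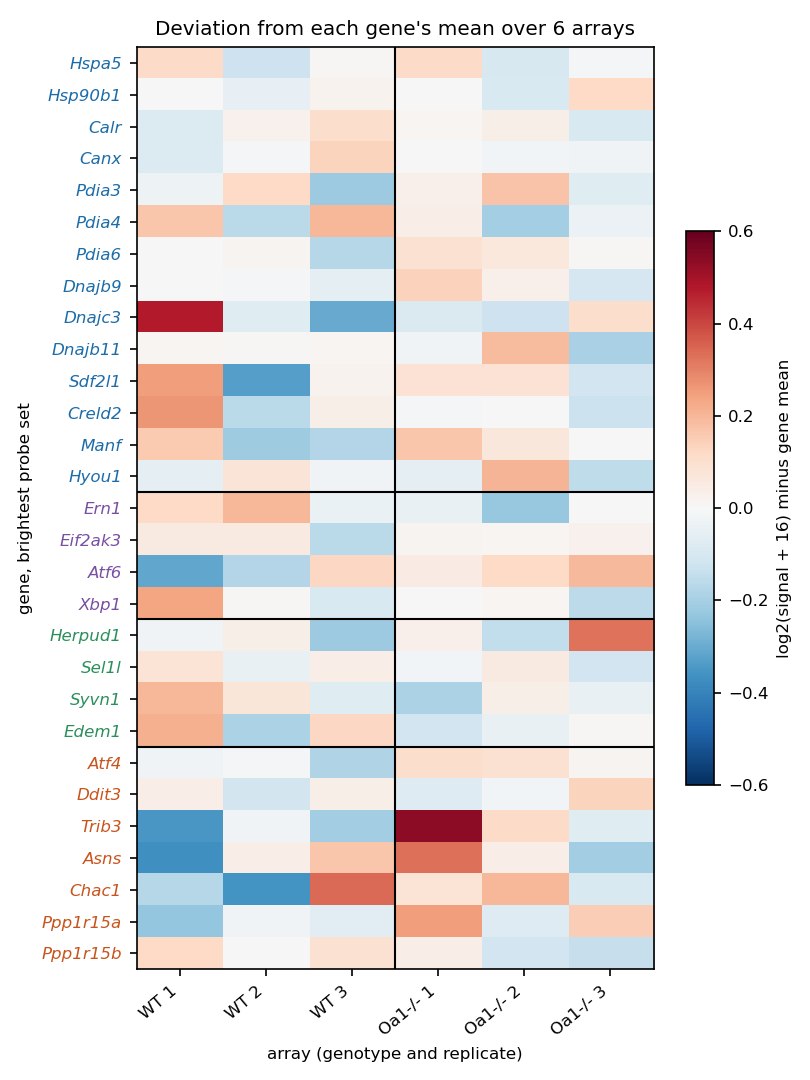
Deviation of each array from the gene's mean over the 6 arrays, in log2(signal + 16) units, for the brightest probe set of 29 members (rows, label colours and black lines mark the classes; columns are the 3 WT and 3 Oa1-/- arrays). No block of rows changes colour at the line between genotypes; Dnajc3, Sdf2l1 and Creld2 are high on WT replicate 1, where Trib3 and Asns are low.

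The sensors and the transcription factors next to them did not share a direction. Ern1 (1437119_at), the IRE1 kinase and endoribonuclease, read 601, 636 and 536 in WT against 534, 468 and 551 in Oa1-/-, a change of −0.19 (SE 0.12, interval −0.46 to 0.088). Oa1-/- replicate 3 lay above WT replicate 3, and the other Oa1-/- arrays lay below all WT arrays. Eif2ak3 (1449278_at), the PERK kinase, read 1184, 1185 and 1018 in WT against 1156, 1148 and 1162 in Oa1-/-, a change of 0.037 (interval −0.18 to 0.25). Its Oa1-/- arrays had an SD of 6.97, the WT arrays one of 96.4.

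Atf6 (1435444_at), the membrane-bound sensor whose cut fragment is a transcription factor, read 535, 589 and 730 in WT against 692, 728 and 766 in Oa1-/-. WT replicate 3 lay inside the Oa1-/- range while the other WT arrays lay below it. The change was 0.24 (SE 0.13, interval −0.058 to 0.54, unadjusted p = 0.100 and adjusted p = 0.985 in limma), and the exact permutation p was 0.3. A dimmer probe set of Atf6, 1456021_at, read 164, 200 and 197 in WT against 250, 219 and 209 in Oa1-/-, and there the groups did not overlap (change 0.25, SE 0.16). Xbp1 (1420886_a_at), the target of IRE1 splicing, read 6591, 5607 and 5239 in WT against 5582, 5625 and 5001 in Oa1-/-, a change of −0.10 (SE 0.10). All 4 of its tested probe sets had changes below 0, from −0.12 to −0.040. The probe sets do not separate spliced from unspliced Xbp1 as far as the annotation used here tells.

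ER-associated degradation sends misfolded proteins back to the cytosol for the proteasome. Its 4 members had a median change of −0.077, with 1 above 0 and 3 below. Syvn1 (1443609_s_at), the ubiquitin ligase HRD1 at the core of the machinery, read 1345, 1232 and 1111 in WT against 1025, 1202 and 1137 in Oa1-/-. Sel1l (1436774_at), its adaptor, read 2828, 2583 and 2744 in WT against 2635, 2766 and 2466 in Oa1-/-. Their changes were −0.13 (SE 0.11) and −0.052 (SE 0.080), and over all 6 arrays Sel1l ran from 2466 to 2828, a ratio of 1.15.

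Edem1 (1424065_at), which picks out glycoproteins that failed to fold, read 605, 454 and 568 in WT against 478, 503 and 522 in Oa1-/-, a change of −0.10 (SE 0.13). Herpud1 (1448185_at), a membrane scaffold of the ligase and a strong stress target, read 872, 908 and 759 in WT against 904, 798 and 1117 in Oa1-/-. Its change was 0.14 (SE 0.14), but 0.0098 without Oa1-/- replicate 3. Its other tested probe set had a change of −0.018.

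The Atf4 branch had the highest class median, 0.13, with 6 of 7 tested genes above 0 (4 of 7 without WT replicate 2), but no gene in it passed the test. Atf4 (1448135_at), the transcription factor of the integrated stress response, read 4680, 4710 and 4186 in WT against 5115, 5053 and 4810 in Oa1-/-. Every Oa1-/- array lay above every WT array. The change was 0.14 (SE 0.077, interval −0.033 to 0.32, unadjusted p = 0.0990 and adjusted p = 0.985 in limma), a 10.4% increase, and the exact permutation p of 0.1 is the smallest that 3 against 3 arrays can give. The other bright probe set of Atf4, 1438992_x_at, had a change of 0.027 and groups that overlapped. ATF4 is controlled mainly at translation, so its messenger RNA is not a measure of its activity.

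Among the targets of ATF4 in feedback and cell death, Ddit3 varied little and Trib3 was dim and varied more. Ddit3 (1417516_at), the transcription factor CHOP, read 457, 410 and 455 in WT against 421, 439 and 489 in Oa1-/-, a change of 0.027 (interval −0.24 to 0.30). Trib3 (1426065_a_at), a pseudokinase induced by ATF4 and CHOP, read 84.6, 110 and 94.6 in WT against 169, 123 and 106 in Oa1-/-. Oa1-/- replicate 1 stood above the other arrays, and replicate 3 lay inside the WT range. The change was 0.39 (SE 0.22, interval −0.12 to 0.90), the highest of the 29, and 0.22 without Oa1-/- replicate 1. A dimmer Trib3 probe set, 1456225_x_at, read 88.8, 54.8 and 26.5 in WT against 109, 133 and 77.5 in Oa1-/- (change 0.82, SE 0.35, unadjusted p = 0.0481, adjusted p = 0.985 in limma). Its groups overlapped, and its lowest WT value lies in the range of the background.

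Atf3 (1449363_at), an early stress transcription factor, was under the filter and was not tested. It read 87.2, 25.0 and 55.5 in WT against 75.3, 42.6 and 21.4 in Oa1-/-, so 1 array of each genotype lay in the background range.

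Asns and Chac1 act on amino acids and glutathione. Asns (1451095_at), asparagine synthetase, read 1164, 1548 and 1693 in WT against 1893, 1546 and 1299 in Oa1-/-. Chac1 (1451382_at), which degrades glutathione, read 248, 215 and 359 in WT against 297, 324 and 262 in Oa1-/-. The genotypes overlapped widely for both genes, and the changes were 0.10 (SE 0.17) and 0.13 (SE 0.20). Without WT replicate 1 the change of Asns was −0.052, and without WT replicate 2 that of Chac1 was −0.022.

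The Ppp1r15 genes encode the phosphatase subunits that undo the PERK signal on eIF2 alpha, and their changes had opposite signs, neither past the test. Ppp1r15a (1448325_at), the inducible subunit GADD34, read 300, 350 and 338 in WT against 426, 335 and 396 in Oa1-/-, a change of 0.21 (SE 0.14). Ppp1r15b (1426798_a_at), the constitutive subunit CReP, read 2132, 1968 and 2093 in WT against 2018, 1810 and 1779 in Oa1-/-, a change of −0.14 (SE 0.085). Of the 3 Oa1-/- arrays, 2 lay outside the WT range for each gene, above it for Ppp1r15a and below it for Ppp1r15b. Both changes kept their sign in all alternatives that gave a value.

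Compared by class, the differences between arrays of 1 genotype were as large as those between genotypes. The mean deviation of the chaperone class was 0.084, −0.063 and −0.030 on the WT arrays and 0.036, 0.022 and −0.050 on the Oa1-/- arrays. That of the degradation class was 0.12, −0.032 and −0.032 in WT against −0.074, −0.026 and 0.045 in Oa1-/-. The sensor class stayed between −0.043 and 0.025. The Atf4 branch ran the other way on WT replicate 1, at −0.14, −0.069 and 0.025 in WT against 0.18, 0.033 and −0.030 in Oa1-/-. In each class the genotypes overlapped, and no test was made on these means.

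WT replicate 1 was the highest of the WT arrays for 6 of 14 chaperones, 3 of 4 degradation genes, 1 of 4 sensors and 2 of 7 Atf4 branch genes. That is 12 of 29 in all, against 31.9% of all genes. On the same array the mean deviation was −0.49 for lens markers and −0.87 for muscle markers, the lowest of the 6 arrays, and the part of these tissues in the class means was not tested. The array with the highest Atf4 branch mean, Oa1-/- replicate 1, was also the array with the highest 18S control, and the part of this in the result was not tested. Without that array the class median was 0.12, 5 of 7 genes were above 0, and the change of Asns was −0.033. Over the 6 fits that leave out an array, the class median ran from 0.072 without WT replicate 1 to 0.22 without WT replicate 3. Markers of the periocular mesenchyme, a tissue of matrix-secreting cells, had all 3 Oa1-/- arrays (−0.13 to −0.065) below all 3 WT arrays (0.070 to 0.11) in the mean over 15 tested genes, of which 13 were below 0. The means of the chaperone class overlapped between genotypes, and the part of this tissue in them was not tested. Markers of retinal ganglion cells separated the genotypes the other way, by little, at −0.15, −0.057 and 0.026 on the WT arrays and 0.11, 0.045 and 0.028 on the Oa1-/- arrays, with 9 of 11 genes above 0. The mean of the 2 tested red blood cell genes was also lower on each Oa1-/- array (−0.30 to 0.044) than on any WT array (0.045 to 0.20). Like the Atf4 branch, the ganglion cell markers were lowest on WT replicate 1 and highest on Oa1-/- replicate 1, and their part in the result was not tested.

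**Figure D4:**
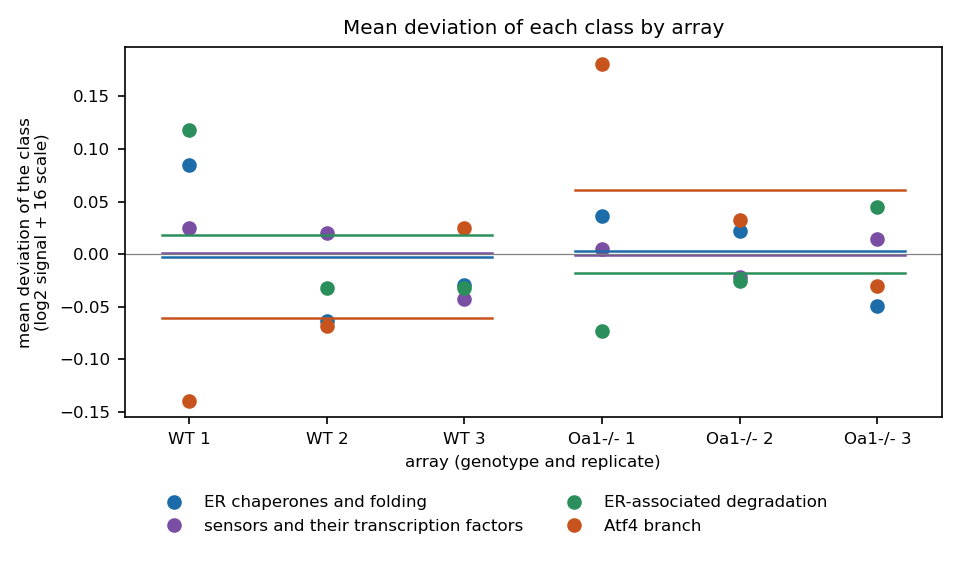
Mean deviation of each class from its genes' means (points, log2(signal + 16) units) on the 3 WT and 3 Oa1-/- arrays; horizontal lines are the mean of a genotype's 3 arrays. The points of a class overlap between genotypes, and on WT replicate 1 the degradation and chaperone classes (0.12 and 0.084) lie opposite the Atf4 branch (−0.14).

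The changes were also grouped by promoter element. The 8 genes with ERSE (Hspa5, Hsp90b1, Calr, Canx, Pdia6, Dnajc3, Creld2 and Syvn1) had a median change of −0.029, with 3 above 0 and 5 below, from −0.13 to 0.11. The 4 tested genes with CARE (Trib3, Asns, Chac1 and Herpud1) had changes of 0.10 to 0.39, with 4 above 0, against 50.8% of all genes, and none past the test. The sign did not hold for 3 of them: Asns was −0.052 without WT replicate 1, Chac1 −0.022 without WT replicate 2 and Herpud1 −0.040 with array weights. The 12 members whose window held no match had a median of 0.032.

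Different probe sets of a gene gave a second reading. Of the 70 probe sets 57 were tested, and 18 genes had more than 1. In 9 of the 18 all probe sets had the same sign, including Atf4, Atf6, Trib3, Asns, Calr and Xbp1. In the other 9 the signs differed. The probe sets of Hsp90b1 lay farthest apart among these, since 1438040_a_at read 1970, 1857 and 1456 in WT against 1285, 1522 and 1253 in Oa1-/- (change −0.37, SE 0.13, unadjusted p = 0.0227, adjusted p = 0.985 in limma), while the brightest probe set had 0.018. Its groups overlapped. This probe set and the dim one of Trib3 were the 2 of 57 with an unadjusted p below 0.05, near the 4.1% of all probe sets.

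The probe sets with a sign opposite to the brightest, in the other 8 genes, had changes from −0.22 to 0.16. They were 1427464_s_at of Hspa5 (−0.0017), 1422845_at and 1428935_at of Canx (0.15 and 0.16), 1430983_at of Pdia6 (−0.22), 1419163_s_at and 1449373_at of Dnajc3 (0.049 and 0.14), 1421240_at of Ern1 (0.015), 1435626_a_at of Herpud1 (−0.018), 1430692_a_at of Sel1l (0.041) and 1428070_at of Syvn1 (0.095). The groups of Canx did not overlap on 1428935_at, at 598, 624 and 581 in WT against 630, 739 and 650 in Oa1-/-. Those of Hyou1 did not overlap on 1423290_at, at 185, 214 and 234 in WT against 171, 184 and 173 in Oa1-/- (change −0.23). In total 4 of the 57 tested probe sets had groups that did not overlap, those of Atf4, Atf6, Canx and Hyou1, where the share over all probe sets was 10.2%.

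**Figure D5:**
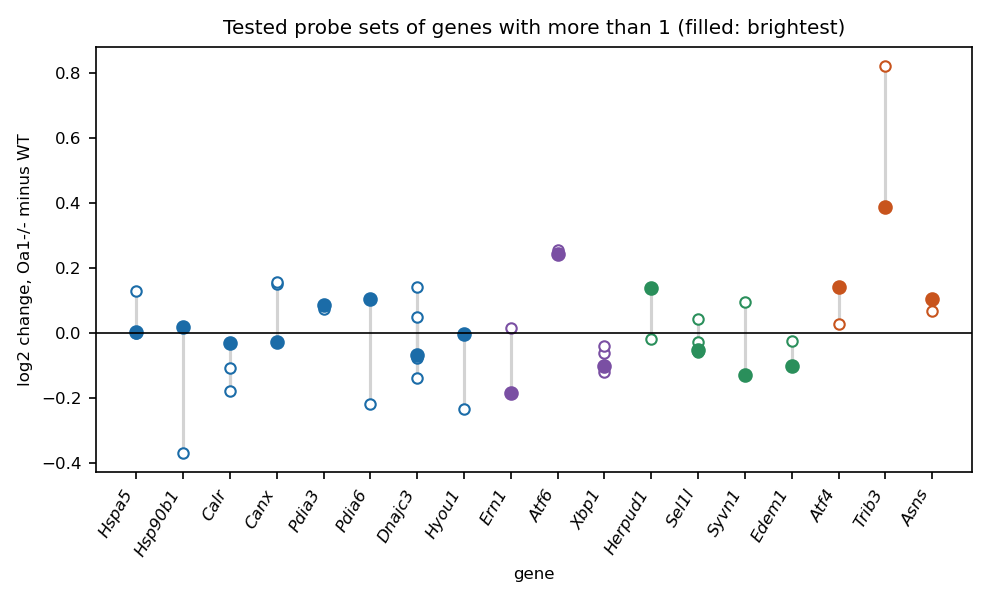
Log2 change in Oa1-/- relative to WT for each tested probe set of the 18 members with more than 1 (filled points, brightest probe set; open points, the others; colours mark the classes as in the plot of changes with intervals). Probe sets of Atf6 and Asns lie close together, while those of Hsp90b1 run from −0.37 to 0.018 and those of Trib3 from 0.39 to 0.82.

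Other genes of the same pathways gave no call either. Of 93 further pathway genes tested, 0 passed after adjustment, and 6 had an unadjusted p below 0.05, with 2 higher and 4 lower, against 1.64% higher and 2.46% lower over all probe sets. Of 23 other folding enzymes and lectins 12 were above 0, and Txndc5, a disulfide isomerase of the ER, read 2726, 2685 and 2784 in WT against 2421, 2378 and 2334 in Oa1-/- (change −0.20, SE 0.070). Of 15 other UPR regulators 6 were above 0, and Nfe2l2, the oxidative stress factor NRF2 and a PERK substrate, read 1283, 1263 and 1287 in WT against 1072, 1114 and 1153 in Oa1-/- (change −0.20). All Oa1-/- arrays of both genes lay below all WT arrays, and the adjusted p was 0.985 for each in limma.

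Of 29 other degradation and translocation genes 13 were above 0. Derl3, a derlin of the retrotranslocation channel and an XBP1 target, read 64.4, 85.3 and 82.3 in WT against 125, 115 and 133 in Oa1-/- (change 0.59, SE 0.20, unadjusted p = 0.0168, adjusted p = 0.985 in limma). By the rule for naming, its groups did not overlap, with every Oa1-/- array above every WT array at a low signal. Of 26 other Atf4 targets 15 were above 0, with a median of 0.0055. Cth, which makes cysteine, read 690, 638 and 674 in WT against 897, 762 and 766 in Oa1-/- (change 0.27, SE 0.11). Phgdh, the entry enzyme of serine synthesis, read 4290, 4277 and 4970 in WT against 3971, 4056 and 3742 in Oa1-/- (change −0.20). Both had an adjusted p of 0.985 in limma, and these ATF4 targets lay on opposite sides of 0.

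Among stress genes outside the ER, the heat shock median lay near 0 and the immediate early median below it. Of 14 tested cytosolic and mitochondrial heat shock genes 6 were above 0, with a median of −0.025. Hspa1a, an inducible cytosolic Hsp70, read 272, 187 and 272 in WT against 172, 172 and 167 in Oa1-/- (change −0.46, SE 0.18, adjusted p = 0.985 in limma). Of 14 tested immediate early genes 4 were above 0 and 10 below, with a median of −0.19, against 0.13 for the Atf4 branch. The difference between these lists was not tested.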

How the data were processed

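Per the submitters' processing notes, the authors made the values with MAS5 (version not given in the sources used here), and the deposited table holds 1 signal intensity per probe set and array on a linear scale. The mean after trimming 2% at each end was 500.002 on each array, so the arrays had been scaled to a common target. Of 45101 probe sets, 64 were controls, and 34945 had 1 gene symbol in the platform annotation. From these values log2(signal + 16) was computed and limma 3.58.1 in R 4.3.3 (lmFit, eBayes with an intensity trend, no covariate) was fitted to the 27022 probe sets above the 40th percentile of mean signal, with Benjamini-Hochberg adjustment over all of them, two-sided. Fold changes on this scale understate those of dim genes. The code was tested on simulated data. Precision is limited by 3 arrays per genotype, and separate dams make replicates biological.

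The members and lists were chosen with earlier results of these data known. Every member is named; of other lists, genes with an unadjusted p below 0.05 and no overlap of the groups. Lists were described by counts and medians, without a test. Alternatives were pseudocounts of 1 and 64, other filters, quantile normalization, median centring, no trend, array weights, a block for the replicate number, averaging all probe sets per gene, and leaving out arrays. Same-numbered arrays of the genotypes correlated at −0.29, 0.16 and −0.23 in their deviations from the group means. Differently numbered arrays correlated at −0.30 to 0.36. With 3 arrays per genotype this check cannot show whether same-numbered arrays shared a step. The labels state no pairing, and none was assumed in the main fit.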

Additional observations from a re-analysis of the deposited data

How the results depend on the processing

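No member passed at an adjusted p below 0.05 under any of the 17 alternatives; the smallest adjusted p of a member was 0.302, with array weights. At an unadjusted p below 0.05 the count of members was 4 with array weights (Manf, Ern1, Atf6 and Chac1; 11.4% of all probe sets reached it there), 1 with all probe sets of a gene averaged (Trib3), 1 without WT replicate 3 and Oa1-/- replicate 1 together (Atf6), and 0 to 1 with 1 array left out. That of other pathway genes was 1 with median centring, 2 without the trend, 10 with array weights (of 93, against the same 11.4%) and 3 to 7 with 1 array left out. With the replicate number as a block (the labels state no pairing) 0 members passed and no call changed. Each block held 1 array of each genotype, so the changes, and the Atf4 branch median of 0.13, could not differ from the main fit.

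The median of the sensor class was −0.00091 with median centring, −0.12 without both WT replicate 3 and Oa1-/- replicate 1, and −0.10 to 0.033 with 1 array left out. That of the chaperones ran from −0.023 to 0.041, of the degradation class from −0.11 to −0.021 and of the Atf4 branch from 0.072 to 0.22, with 1 array left out. With array weights the degradation median was −0.0055 and that of the Atf4 branch 0.071. Averaging all probe sets gave −0.021 and 0.087, and median centring a degradation median of −0.046. With the filter at the 70th percentile the Atf4 branch median was 0.066, over 4 genes in place of 7. Trib3, Chac1 and Ppp1r15a were under that filter, and the changes of the genes left were those of the main fit. The chaperone median stayed between −0.019 and 0.034 in the other alternatives. Of 490 member values under alternatives 44 changed sign, in 19 members. The 10 that kept it throughout were Atf4, Atf6, Ern1, Manf, Pdia4, Ppp1r15a, Ppp1r15b, Syvn1, Trib3 and Xbp1. The other filters, the fit without a trend and the replicate block leave the change of a probe set as it is. Their values are among the 490 and could not change sign. The cause of the sign changes was not tested.

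With quantile normalization Hspa5 was −0.049, Hsp90b1 −0.026 and Hyou1 0.0099. With median centring of arrays Canx was 0.0043, Dnajb11 0.013 and Hyou1 0.029. With array weights Hsp90b1 was −0.018, Dnajb11 0.099, Creld2 0.037, Hyou1 0.079, Eif2ak3 −0.012, Herpud1 −0.040, Sel1l 0.029 and Edem1 0.034. With the average over all probe sets of a gene Hsp90b1 was −0.18, Canx 0.093 and Pdia6 −0.057. Over the 7 fits without 1 array, or without WT replicate 3 and Oa1-/- replicate 1 together, Dnajc3 ran from −0.24 to 0.15, Creld2 from −0.20 to 0.019, Asns from −0.052 to 0.24, Hspa5 from −0.058 to 0.062, Hsp90b1 from −0.036 to 0.069, Sdf2l1 from −0.12 to 0.17, Hyou1 from −0.10 to 0.073, Ddit3 from −0.033 to 0.095, Chac1 from −0.022 to 0.33, Calr from −0.080 to 0.013, Canx from −0.074 to 0.033, Pdia3 from −0.00053 to 0.17, Eif2ak3 from −0.035 to 0.073, Dnajb9 from −0.028 to 0.11 and Dnajb11 from −0.12 to 0.075. Low signals (Atf3, Trib3, Derl3) are the least certain.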
